A study of Piaractus mesopotamicus and Piaractus mesopotamicus x Colossoma macropomum and Colossoma macropomum with 15 samples.

Results

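The miRNAs miR-122, miR-192 and miR-194, which are known from liver and gut, were examined in fast skeletal muscle of 2 fish species and their hybrid. They were the loci named dre-miR-122, dre-miR-192, dre-miR-194a and dre-miR-194b, 4 of the 595 loci of the count matrix. The group was chosen by measured values: miR-122 and miR-192 were already known to differ between genotypes in these fish. The differences of their levels between genotypes are therefore given as a description, without a p-value. Counts were found for 3 of the 4 loci, and 2 of the 4 were among the 199 loci that reached a mean normalized count of 10.

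Small RNA was sequenced from the white epaxial muscle of 15 untreated early juvenile fish. They comprised 5 pacu (PC, Piaractus mesopotamicus), 5 tambaqui (TQ, Colossoma macropomum) and 5 tambacu (TC), the hybrid of a female tambaqui and a male pacu. Each library was 1 fish. The paper describes water and light conditions for the fish as a whole, without saying which fish shared a tank. The labels number the fish within a genotype without stating families or tanks. The total count per fish was 2918058 to 5089685 in PC, 2422820 to 5669084 in TC and 2448658 to 4143529 in TQ, with medians of 4769153, 4763971 and 2858311. Levels are given in CPM, counts scaled to a common library size by TMM, a method that corrects for the composition of a library. Because this is whole tissue, fewer cells of a type and less RNA per cell cannot be told apart.

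MicroRNAs are short RNAs that, loaded into an Argonaute protein, pair with messenger RNAs mainly through their seed, the bases 2 to 8 from the 5′ end, and lower the output of those messengers. miR-122 is the predominant miRNA of hepatocytes in vertebrates, where it is linked to lipid metabolism. miR-192 and miR-194 are enriched in intestinal epithelium, and in mammals also in liver and kidney, where both are produced from shared transcripts. None of them is known as a muscle miRNA, in contrast to miR-1, miR-133 and miR-206.

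The reads were counted on zebrafish (Danio rerio) sequences, which are shown because they define what could be counted, with the seed in capitals. They are taken from the reference that the study used, written in DNA letters.
miR-122: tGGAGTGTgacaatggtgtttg
miR-192: aTGACCTAtgaattgacagcc
miR-194a: tGTAACAGcaactccatgtgg
miR-194b: tGTAACAGccgctccatgtgga

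The seeds of miR-122 and miR-192 occurred in no other annotated mature sequence, whereas miR-194a and miR-194b shared a seed. Counted from the 5′ end, miR-194b differed from miR-194a by A10C and A11G and by 1 extra base at the 3′ end. The closest stretch on any other of the 346 reference precursors had 8 mismatches to miR-122 (on dre-let-7d-1) and 7 to miR-192 (on dre-mir-129-2). Each mature sequence lay on the 5′ side of 1 precursor, with 100% identity, and no second arm of these precursors was annotated. The annotated places were bases 11 to 32 of 76 in dre-mir-122 and bases 16 to 36 of 85 in dre-mir-192, shown here with the mature part in capitals.
dre-mir-122: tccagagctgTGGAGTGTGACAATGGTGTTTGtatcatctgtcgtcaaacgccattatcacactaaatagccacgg
dre-mir-192: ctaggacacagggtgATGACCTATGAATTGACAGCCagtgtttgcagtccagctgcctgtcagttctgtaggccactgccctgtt

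No place overlapped that of another mature sequence. Whether pacu and tambaqui carry the same sequences as zebrafish at these loci was not tested.

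All of these miRNAs were scarce in muscle. miR-192 gathered 1463 counts over the 15 fish, 0.00245% of all counts, and miR-122 gathered 771, or 0.00129%. By mean CPM they stood at ranks 144 and 162 of the loci. miR-194a had 47 counts in 14 fish, 7.87e-05% of all counts, and rank 213. miR-194b had 0 counts in every fish, which allows a level of up to 0.0502 CPM over all 15 libraries. In a single fish a count of 0 allows between 0.463 and 1.33 CPM. These limits cover counting error only, since copies made by PCR are not distinguished. The mean normalized count was 92.8 for miR-192, 46.9 for miR-122 and 2.90 for miR-194a. Around the minimum of 10, miR-429a lay just inside with 10.01 and miR-217 just outside with 9.24.

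miR-122, the hepatocyte miRNA, was lower in TQ than in the other genotypes. In PC its level was 10.01 CPM in fish 10, 17.3 in fish 3, 10.04 in fish 4, 19.8 in fish 5 and 16.8 in fish 8. In TC it was 7.51 CPM in fish 3, 22.7 in fish 4, 14.6 in fish 5, 20.2 in fish 6 and 13.8 in fish 8. In TQ it was 6.79 CPM in fish 1, 9.44 in fish 2, 5.15 in fish 3, 8.002 in fish 6 and 3.42 in fish 8. Every PC fish lay above every TQ fish, and 4 of 5 TC fish did so, TC fish 3 falling within the TQ range. Nothing is read from this separation, because these comparisons chose miR-122. The share of all loci that separate in this way is not given here. The TC mean was 15.8 ± 5.96 CPM (SD, n = 5), the PC mean 14.8 ± 4.49 and the TQ mean 6.56 ± 2.36. TC and PC, the neighbours at the top of this order, overlapped, and the TC fish was the higher in 14 of 25 pairs.

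miR-192, the intestinal miRNA, was also lower in TQ than in the other genotypes. In PC its level was 24.7 CPM in fish 10, 40.4 in fish 3, 19.3 in fish 4, 24.9 in fish 5 and 36.4 in fish 8. In TC it was 23.5 CPM in fish 3, 35.6 in fish 4, 24.1 in fish 5, 33.7 in fish 6 and 25.3 in fish 8. In TQ it was 18.2 CPM in fish 1, 16.04 in fish 2, 14.8 in fish 3, 14.0 in fish 6 and 15.1 in fish 8. All 5 TQ fish lay below every fish of PC and TC, and the nearest was PC fish 4. The share of all loci that separate the genotypes in this way is not given here. Both miRNAs were chosen by these comparisons, so nothing is read from the lack of overlap. Means were 29.1 ± 8.85 CPM (SD, n = 5) in PC, 28.4 ± 5.74 in TC and 15.6 ± 1.62 in TQ. PC and TC overlapped, with the TC fish higher in 11 of 25 pairs.

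**Figure D1:**
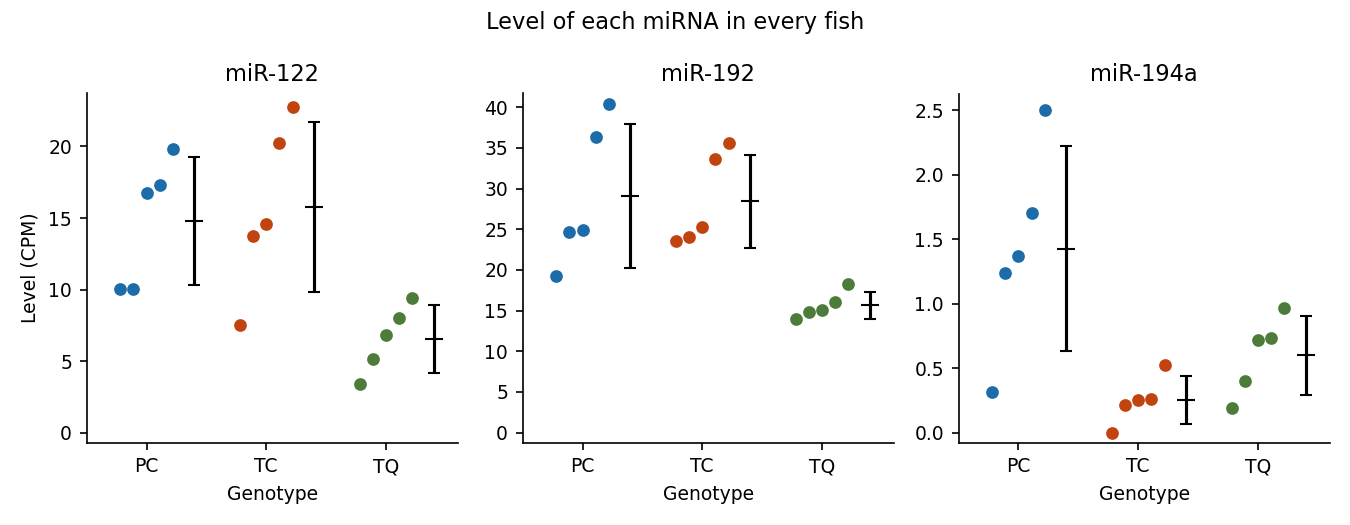
Level in CPM (vertical axis) of miR-122, miR-192 and miR-194a in each fish, by genotype, points being single fish sorted by level and the black mark with bar the mean ± SD of 5 fish. The TQ fish lie at 3.42 to 9.44 CPM for miR-122 and 14.0 to 18.2 for miR-192, below all PC fish. miR-194a is highest in 4 PC fish and has its lowest mean in TC, where single fish overlap those of TQ.

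Against TQ, miR-122 had a log2FC of 1.26 (SE 0.33) in TC and of 1.17 (SE 0.33) in PC, a 2.40-fold and a 2.25-fold higher level. For miR-192 the log2FC was 0.86 (SE 0.22) in TC and 0.89 (SE 0.22) in PC, 1.82-fold and 1.85-fold. Among the 199 loci tested, the log2FC of miR-122 stood at rank 6 from the top in TC vs. TQ and at rank 7 in PC vs. TQ. That of miR-192 stood at ranks 14 and 17, and the median log2FC over all loci was 0.03 and 0.00. With the thresholds of the study (absolute log2FC of at least 0.75 and adjusted p of at most 0.05), both miRNAs were called upregulated in TC vs. TQ, where 14.6% of all loci tested were called, and in PC vs. TQ, where 10.6% were. The choice of these miRNAs used the same comparisons, so nothing is read from these calls or ranks. TC vs. TQ and PC vs. TQ share the TQ fish.

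The hybrid was close to PC for both miRNAs. TC vs. PC gave a log2FC of 0.09 (SE 0.31, 95% interval -0.52 to 0.71) for miR-122 and of -0.03 (SE 0.21, 95% interval -0.45 to 0.39) for miR-192. Neither was called, against a background of 3.52% of loci, and the intervals leave room for differences of either sign. Against the mean of both parents on the log2 scale, TC had a log2FC of 0.68 (SE 0.27) for miR-122 and of 0.42 (SE 0.18) for miR-192, and neither was called, with 3.02% of all loci called.

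**Figure D2:**
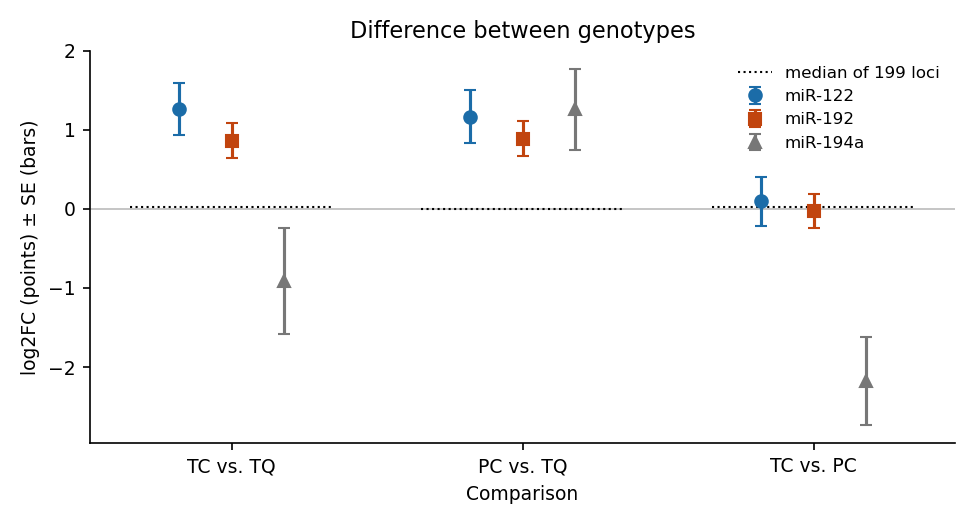
log2FC (points) with its SE (bars) of miR-122, miR-192 and miR-194a in 3 comparisons of genotypes, the dotted lines being the median of the 199 loci tested. miR-122 and miR-192 lie between 0.86 and 1.26 against TQ and near 0 in TC vs. PC, while miR-194a lies at -2.18 in TC vs. PC.

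These calls depended on how libraries were scaled. With total counts as library sizes, with library sizes that leave out miR-199-5p and miR-100-5p, or with the size-filtered reads, neither miRNA was called in TC vs. TQ or PC vs. TQ. With size-filtered reads the log2FC changed little, to 1.26 and 1.23 for miR-122 and 0.83 and 0.88 for miR-192, while its SE rose to 0.46 and 0.39, and 1 and 8 of the 199 loci were called. With total counts the median log2FC of all loci moved to -0.38 in TC vs. TQ and -0.25 in PC vs. TQ, and miR-122 then lay 1.29 and 1.16 above that median and miR-192 0.86 and 0.82 above it. In PC vs. TQ, miR-122 was also no longer called without PC fish 3, PC fish 8, TQ fish 1, TQ fish 3 or TQ fish 8, its log2FC then lying within 0.98 to 1.37, the range over all 15 omissions.

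miR-194a, which in mammals is transcribed together with miR-192, did not show the order of miR-192. Its counts in PC were 7 in fish 10, 5 in fish 3, 8 in fish 4, 10 in fish 5 and 1 in fish 8. In TC they were 1 in fish 3, 1 in fish 4, 3 in fish 5, 1 in fish 6 and 0 in fish 8, and in TQ 2 in fish 1, 1 in fish 2, 3 in fish 3, 1 in fish 6 and 3 in fish 8. Thus 4 of 5 PC fish exceeded every TQ fish in CPM, and no TC fish exceeded the highest TQ fish. Means were 1.43 ± 0.792 CPM (SD, n = 5) in PC, 0.251 ± 0.188 in TC and 0.600 ± 0.306 in TQ, and the lowest fish of each genotype lay below 0.463 CPM, the smallest level that a count of 0 allows in a library.

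Summed over the fish, miR-194a had 31 counts in PC, 6 in TC and 10 in TQ. The pooled level in TC was 0.208 times that in PC (exact 95% interval 0.0710 to 0.506, counting error only). TC against TQ gave a ratio of 0.523 (0.156 to 1.59) and PC against TQ one of 2.52 (1.20 to 5.75). miR-194a was too low for the main test. Without the minimum count, the fitted log2FC was -2.18 (SE 0.56) in TC vs. PC, -0.91 (SE 0.67) in TC vs. TQ and 1.26 (SE 0.51) in PC vs. TQ. The hybrid thus stood with PC for miR-122 and miR-192, and with TQ or below it for miR-194a.

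The proportions of these miRNAs to one another need no scaling of the libraries. Per 100 counts of miR-192, miR-122 had 52.2 ± 15.8 counts (SD, n = 5) in PC, 54.2 ± 12.9 in TC and 42.1 ± 15.5 in TQ. The fish ranged from 40.6 to 79.5 in PC, from 31.9 to 63.9 in TC and from 22.6 to 58.8 in TQ. All genotypes overlapped, and the log2 ratio differed by 0.39 (SE 0.31) between TC and TQ, by 0.33 (SE 0.30) between PC and TQ and by 0.06 (SE 0.25) between TC and PC. Single fish weighed heavily on these differences. Without TQ fish 8 they were 0.19 for TC and TQ and 0.14 for PC and TQ, without PC fish 5 the latter was 0.17, and without TC fish 3 TC and PC differed by 0.24. Over all omissions they lay between 0.19 and 0.57, between 0.14 and 0.47 and between -0.02 and 0.24.

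The mean proportion of miR-194a to miR-192 was lowest in TC. Per 100 counts of miR-192, miR-194a had 10.1 counts in PC fish 10, 3.40 in PC fish 3, 6.40 in PC fish 4, 6.85 in PC fish 5 and 0.870 in PC fish 8. In TC it had 1.06 counts in fish 3, 0.602 in fish 4, 2.19 in fish 5, 0.781 in fish 6 and 0 in fish 8, and the TQ fish ranged from 1.18 to 6.52. Only PC fish 8 and TQ fish 2 fell within the TC range. The log2 ratio, with 0.5 added to each count, differed by -1.88 (SE 0.60) between TC and PC, by -1.74 (SE 0.46) between TC and TQ and by 0.15 (SE 0.64) between PC and TQ. When each fish was left out in turn, the last difference ranged from -0.18 to 0.62, changing sign without PC fish 10 or TQ fish 2, and the others from -2.36 to -1.59 and from -2.06 to -1.54.

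**Figure D3:**
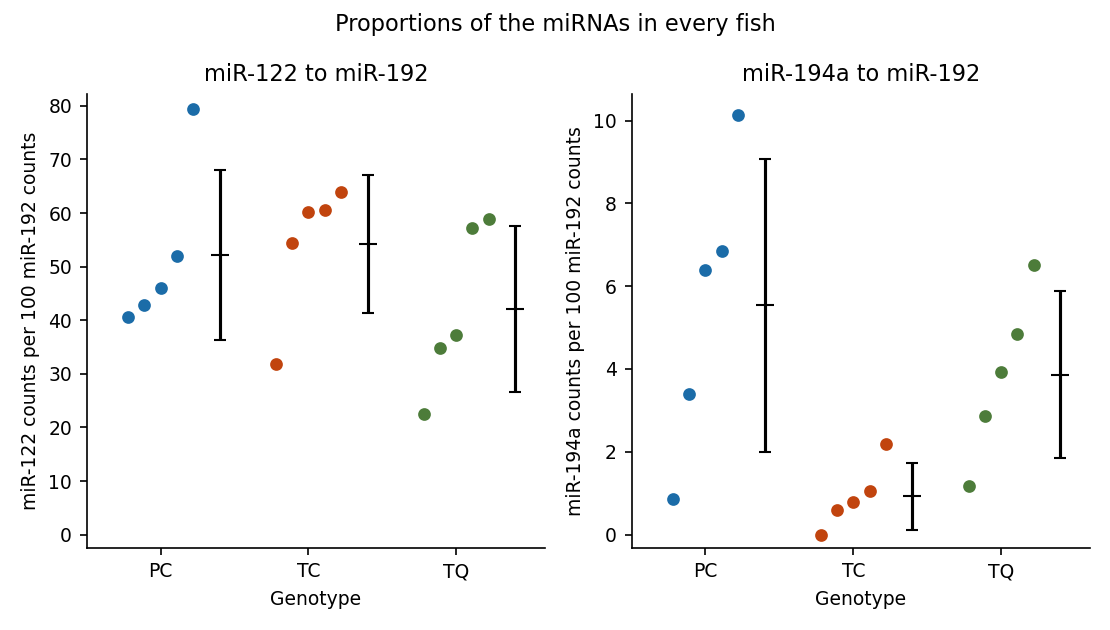
Counts of miR-122 (left) and miR-194a (right) per 100 counts of miR-192 (vertical axes) in each fish, by genotype, points being single fish and the black mark with bar the mean ± SD of 5 fish. The genotypes overlap for miR-122, with means of 42.1 to 54.2, while miR-194a has a mean of 0.927 in TC against 5.53 in PC and 3.86 in TQ.

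For miR-122 in every genotype, and for miR-192 in PC and TC, the spread between fish was wider than counting error alone would give. The coefficient of variation of miR-122 was 30.4% in PC, 37.8% in TC and 36.0% in TQ, where counting alone would give 13.7%, 14.1% and 22.7%. For miR-192 it was 30.4% in PC and 20.2% in TC against 9.47% and 9.93% from counting. In TQ it was 10.4%, below the 14.0% expected from counting, so no spread between TQ fish beyond counting error was detectable for miR-192. For miR-194a it was 55.5%, 74.7% and 50.9% in PC, TC and TQ, below the 56.0%, 93.1% and 79.6% from counting.

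Whether miR-122 and miR-192 varied together between fish was examined within genotypes, on log2(CPM + 0.5) after subtracting the genotype mean, so that the differences between genotypes that chose them played no part. They deviated in the same direction in 13 of 15 fish, 4 of 5 in PC, 5 of 5 in TC and 4 of 5 in TQ. The largest joint deviations were PC fish 3 (0.27 for miR-122 and 0.52 for miR-192) and TC fish 4 (0.61 and 0.34) upward, and PC fish 4 (-0.48 and -0.53) and TC fish 3 (-0.93 and -0.25) downward. PC fish 5 and TQ fish 6 were the exceptions, with miR-122 above and miR-192 below their means.

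The correlation of these deviations was r = 0.57 (permutation within genotypes, two-sided, p = 0.0315, adjusted over 17 relations p = 0.160), with Spearman's rho = 0.55 (permutation p = 0.0496, adjusted 0.211). Without the 2 fish farthest in miR-122, TQ fish 8 and TC fish 4, r was 0.56. The relation thus failed the correction. With size-filtered reads as library sizes it passed, with r = 0.86 (permutation, adjusted p = 0.0119), while over the other scalings, the Spearman measure, another pseudocount and the omission of each fish r lay between 0.50 and 0.68 and did not pass.

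**Figure D4:**
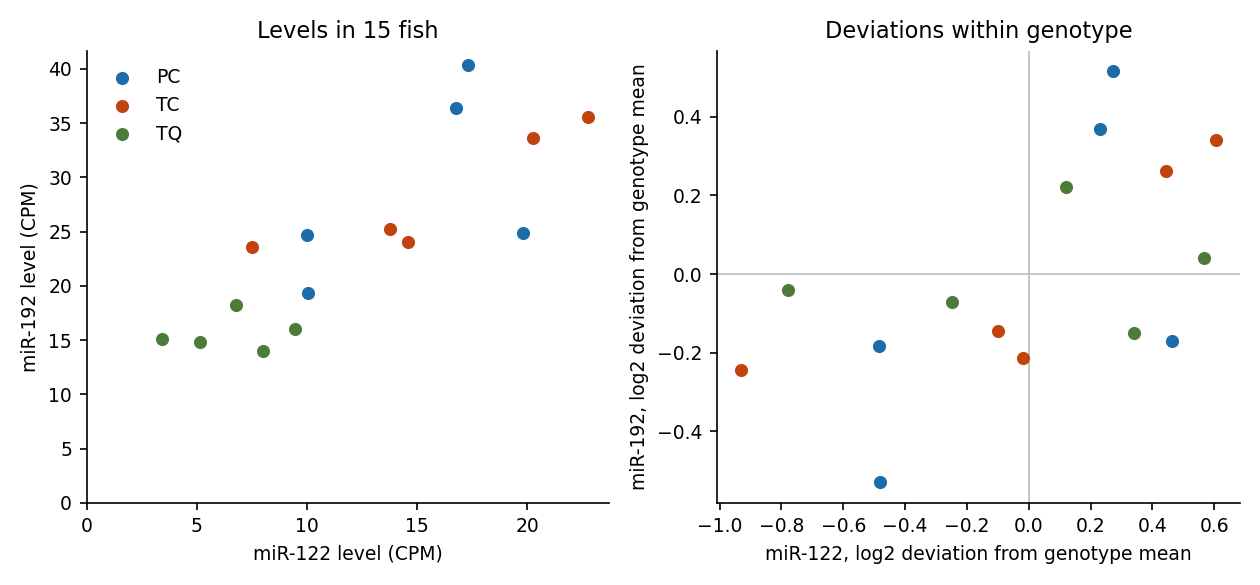
Left, level of miR-192 against miR-122 in CPM in the 15 fish. Right, log2 deviations of both from their genotype mean, points being single fish coloured by genotype. In the right plot 13 of 15 fish lie at the lower left or upper right, where both deviations have the same sign.

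The other 16 relations set miR-122 and miR-192 against blood, pancreas, leukocyte and muscle miRNAs and the total count, and r ranged from -0.48 to 0.85. Of these, 1 passed the correction and 3 had an unadjusted p under 0.05. miR-122 rose and fell with miR-1, known as the main miRNA of striated muscle, with r = 0.85 (permutation, p = 0.00122, adjusted p = 0.0207). Without TQ fish 8 and TC fish 4, r was 0.81. The miR-1 copy used was not the most abundant miRNA in these counts. Its mean was 717 CPM in PC, 917 in TC and 595 in TQ, against 9550, 12625 and 7092 for miR-27b-3p. For miR-122 and miR-1, rho was 0.61 (permutation, adjusted p = 0.161). The adjusted p rose above 0.05 when PC fish 10 (0.0525), PC fish 4 (0.0530), TC fish 3 (0.0955) or TQ fish 8 (0.0756) was left out, with r of 0.80 to 0.89 over all omissions (permutation).

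miR-192 had r = 0.65 with miR-1 (permutation, p = 0.0108, adjusted 0.0917) and r = -0.44 with miR-499-5p of slow muscle (permutation, p = 0.0376, adjusted 0.160), and neither passed. With the erythroid miR-451 and miR-144-3p, miR-122 had r = -0.24 and -0.25 and miR-192 -0.33 and -0.14. With the exocrine pancreas miR-216a the values were -0.21 and 0.07, with the endocrine miR-375 -0.27 and -0.26, and with the leukocyte miR-223 -0.06 and -0.48. With the total count they were 0.18 and 0.09. None of these relations passed (permutation, smallest adjusted p = 0.438). The fish share their library scaling across all 17 relations. With the other library scalings, miR-122 and miR-1 had r of 0.85 to 0.94 and passed each time (permutation, adjusted p of at most 0.0209). How much of these correlations stems from the shared scaling was not tested.

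Over all 15 fish, genotype differences included, the mature names most like miR-122 were, by Pearson's r of log2 levels, miR-1 (0.85), miR-192 (0.83), miR-140-3p (0.76), miR-124-5p (0.71) and miR-10c-5p (0.67). Those most like miR-192 were miR-124-5p (0.87), miR-212-5p (0.85), miR-122 (0.83), miR-27b-3p (0.80) and miR-489 (0.76). These are the highest of 151 names. The median r over these names, each at its copy with the highest r, was -0.07 for miR-122 and -0.11 for miR-192. The mean levels of all these partners were lowest in TQ. miR-212-5p, for example, had 9.27 ± 4.77 CPM (SD, n = 5) in PC, 8.98 ± 1.64 in TC and 4.83 ± 0.533 in TQ. Within genotypes, miR-192 fell to the sixth rank for miR-122, and miR-122 to the tenth for miR-192. The values are descriptive, since the points share genotypes and libraries.

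Markers of other tissues and cell types that a muscle sample can hold were examined beside these miRNAs. The lists were chosen with earlier results of these data known, so their differences between genotypes are a description, without a p-value. Of 4 exocrine pancreas loci 3 were tested. In PC vs. TQ, miR-216a and miR-216b were downregulated (log2FC -1.43 and -2.23), the opposite direction to miR-122 and miR-192. miR-148, which other tissues also express, had a log2FC of 0.35 and was not called. In TC vs. PC both miR-216 loci were upregulated (log2FC 1.79 and 2.61). In TC vs. TQ they were at 0.36 and 0.38 and were not called. The levels of miR-216a were 6.85 ± 3.10 CPM (SD, n = 5) in PC, 23.2 ± 6.98 in TC and 17.9 ± 4.02 in TQ. The summed level of the 4 loci was 1036 to 1729 CPM in PC, 737 to 1155 in TC and 844 to 1281 in TQ, with medians of 1477, 1018 and 1147. This sum mainly reflects miR-148, because the other loci were low. The mean of miR-216b was 0.935 CPM in PC, 6.49 in TC and 5.04 in TQ, and miR-217 lay below the minimum count.

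Of 5 endocrine pancreas loci, 1 copy of miR-7a was upregulated against TQ, with a log2FC of 1.69 for TC and 1.91 for PC. Its mean level in TQ was low, at 1.58 CPM. No copy of miR-375, the defining islet miRNA, was called, and neither were the remaining miR-7a copies. For TC against TQ these uncalled loci had negative values, -0.37 for each miR-7a copy, -0.18 and -0.19 for miR-375. For PC against TQ their values were positive, 0.23 for each miR-7a copy, 0.77 and 0.75 for miR-375. These uncalled miR-7a copies had identical values, and the miR-375 copies nearly the same ones. Copies of 1 miRNA are thus not separate observations here, and the sum below holds all of them. The summed level of the 5 loci was 21.8 to 51.9 CPM in PC, 15.97 to 32.4 in TC and 11.3 to 30.8 in TQ. Of 11 loci of epithelia 2 had counts, miR-203a-3p and miR-205-5p, and neither was called in any of the 3 comparisons between genotypes, their summed level being 27.3 to 170 CPM in PC, 26.2 to 107 in TC and 35.7 to 167 in TQ. The other 9 loci, copies of miR-200a-3p, miR-200b-3p, miR-200c-3p and miR-141-3p and miR-203b-3p, were at 0 in every fish. The annotated places of 8 of these 9 overlap that of another mature sequence, so a 0 there does not show that the miRNA was missing.

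Both slow muscle loci, the arms miR-499-5p and miR-499-3p, had their lowest mean level in TQ, as miR-122 and miR-192 did. They were upregulated in TC vs. TQ (log2FC 1.87 and 1.56) and in PC vs. TQ (1.60 and 1.47) and were not called in TC vs. PC. Their summed level was 290 to 642 CPM in PC, 297 to 792 in TC and 63.7 to 378 in TQ. Within genotypes, miR-499-5p had r = -0.40 with miR-122 (permutation, p = 0.186, adjusted 0.451), which did not pass. Of 10 striated muscle loci 4 had counts, and 1 copy of miR-206-3p was upregulated in TC vs. TQ (log2FC 1.11). Not called there were its other copy (0.81) and both copies of miR-1 (0.62 each). In PC vs. TQ none was called, with 0.76 and 0.45 for miR-206-3p and 0.27 and 0.26 for miR-1. The copies of miR-1 had nearly the same levels, so they are not separate observations, and the sum holds both. This sum was 1441 to 1953 CPM in PC, 1543 to 2728 in TC and 1107 to 1528 in TQ. The 6 loci of miR-133a-3p and miR-133b-3p were at 0, all with places that overlap another.

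Among 6 leukocyte loci, miR-223 was downregulated in TC vs. TQ (log2FC -1.10) and PC vs. TQ (-1.08), miR-155 in TC vs. TQ (-1.26) and miR-150 in PC vs. TQ (-0.82). Thus 2 were called in each, where 14.6% and 10.6% of all loci tested were called. Not called in TC vs. TQ were miR-150 (-0.17), both copies of miR-142a-3p (-0.70) and miR-142a-5p (0.15). Not called in PC vs. TQ were miR-155 (-1.03), both copies of miR-142a-3p (-0.63) and miR-142a-5p (-0.30). The copies of miR-142a-3p had identical values, so they are not separate observations, and the sum below holds both. The sum of the 6 loci was 484 to 753 CPM in PC, 754 to 966 in TC and 818 to 1085 in TQ. Of the 2 erythroid loci, miR-144-3p was upregulated in TC vs. TQ (log2FC 1.48) and miR-451 downregulated in PC vs. TQ (-1.61). The other locus was not called there, with miR-451 at -0.20 in TC vs. TQ and miR-144-3p at 0.15 in PC vs. TQ. In TC vs. PC miR-144-3p was at 1.33 and miR-451 at 1.41, and neither was called. The sum of both was 2403 to 3904 CPM in PC, 3754 to 14585 in TC and 1287 to 9215 in TQ. The part of liver or gut tissue, blood, or fiber type in the levels of miR-122 and miR-192 was not tested.

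**Figure D5:**
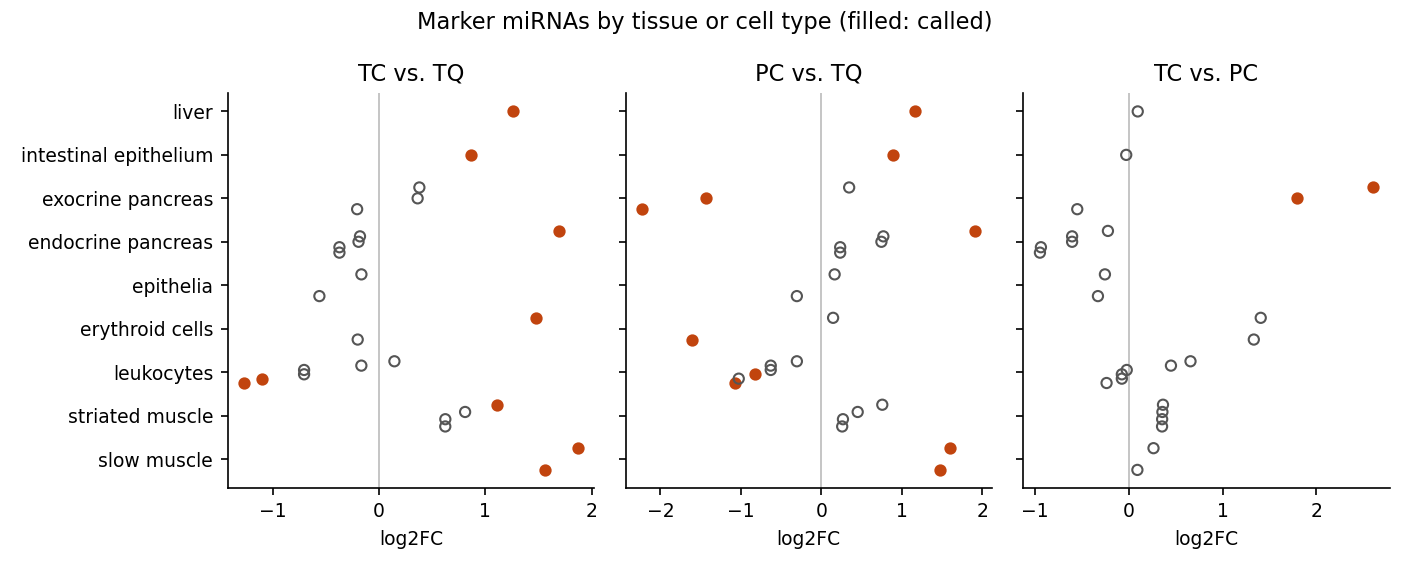
log2FC (horizontal axes) of each tested marker locus in 3 comparisons of genotypes, by tissue or cell type, filled points having passed both thresholds (adjusted p and log2FC) and open points not. miR-122 (liver) and miR-192 (intestinal epithelium) lie to the right against TQ with both slow muscle loci, while the lowest exocrine pancreas locus lies at -2.23 in PC vs. TQ.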

How the data were processed

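The deposited raw counts give the reads per mature miRNA locus, made by the authors with Fastx-toolkit (adapters), a length and quality filter, Hisat2 at standard settings against zebrafish miRBase precursors, GMAP and featureCounts. Hisat2 and featureCounts versions and the handling of strand and of multiply aligned reads were not given in the sources used here. A normalized signal, deposited by the authors as count over a size factor for each fish, set the mean normalized count minimum of 10.

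From the counts, edgeR 4.0.16 (R 4.3.3, limma 3.58.1) was fitted by quasi-likelihood to 199 loci and all 15 fish, with TMM factors from those loci and Benjamini-Hochberg adjustment. That TMM used those loci rather than all 595 was set after seeing the data, to follow an earlier processing of them. An intercept-free model of genotype gave the 4 contrasts. miR-194a was fitted without the minimum. Correlations used 100000 permutations within genotypes, so that the smallest p they can give is 1e-05. The test was tried on simulated data. DESeq2 1.42.0 and Python 3.11.15 with scipy 1.17.1 were also used. The SE of an edgeR log2FC is its absolute value over the square root of the quasi-likelihood F statistic. Intervals of log2FC are normal 95% intervals from that SE, narrower than intervals from a t distribution would be. The members, marker lists and tests were chosen with earlier results of these data known. Named miRNAs were the members, all marker list members that were called, the partners of the correlations and the 5 names most like each member. The alternatives were scaling, filter, test, thresholds, fish in the fit, replicate block and omission of each fish.

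Depth was 2422820 to 5669084 counts per fish. Pairs of fish of 1 genotype had a ratio of chi-square to degrees of freedom of 93.2 to 4541, more than copies of 1 library would, and each fish was counted as a replicate.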

Additional observations from a re-analysis of the deposited data

Results flagged for a closer look

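In TC, fish 3 stood apart from the other 4 in the log2 ratio of miR-122 to miR-192, with -1.63 (30 counts of miR-122 against 94 of miR-192). Its gap to the next fish was 0.773 of the range of the group. Of 15 groups of 5 fish examined in this way, 1 was flagged, and chance flags about 1 in 20.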

How the results depend on the processing

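Both members kept their direction against TQ in all alternatives, with a log2FC of 0.91 to 1.51 (TC vs. TQ) and 0.92 to 1.69 (PC vs. TQ) for miR-122 and of 0.48 to 1.08 and 0.57 to 1.17 for miR-192. Total counts as library sizes gave the lowest values of miR-192, 0.48 in TC vs. TQ and 0.57 in PC vs. TQ. The number of members called, 2 in each of these comparisons, was 0 in both with total counts, with library sizes that leave out miR-100-5p and miR-199-5p, and with size-filtered reads. TC vs. TQ then had 31, 31 and 1 of 199 loci called, and PC vs. TQ had 14, 26 and 8. The number was 1 in both with a log2FC minimum of 1, 1 in TC vs. PC with no minimum count, through miR-194a, and 1 to 2 in PC vs. TQ when a fish was left out. The share of all loci called in these cases is not given here, so nothing is read from these numbers. TMM factors from all loci, an alternative added after seeing the data, called both members in the same comparisons, with 32 and 24 loci called.

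With the fish number as a replicate block, 0 members were called in PC vs. TQ, where 9 of 199 loci were, and 2 in TC vs. TQ, where 29 were. The log2FC in PC vs. TQ was then 1.69 (SE 0.48) for miR-122 and 1.17 (SE 0.34) for miR-192, above the values without the block, and miR-194a had a log2FC of -1.84 in TC vs. TQ and 0.049 in PC vs. TQ. PC fish 10, TQ fish 1 and TQ fish 2 have a number that no other fish has, so they add nothing to the comparisons with the block. The 9 pairs of fish with the same number had correlations of -0.49 to 0.27, 4 of them over 0.1. The sources do not say what a number stands for, and the fish were not treated as pairs.

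The within-genotype correlation of miR-122 and miR-192 was 0.86 with size-filtered reads and 0.50 to 0.65 when a fish was left out. That of miR-122 and miR-1 was 0.61 as Spearman's rho, which did not pass. It was 0.85 with TMM from all loci, 0.94 with size-filtered reads, and 0.80 to 0.89 when a fish was left out. Of the 16 other relations, 1 passed, against 0 by Spearman's rho, 2 with size-filtered reads and 0 to 3 when a fish was left out (0 without PC fish 10, PC fish 4, TC fish 3 or TQ fish 8, and 3 without TQ fish 6). The alternatives of these 16 were added after seeing the data. The cause of these changes was not tested. Depth limits miR-194a, which had 0 to 10 counts a fish.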
